A study of Mus musculus with 10 samples.

Results

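Genes on mouse chromosomes 2, 5, 12 and 13 were described because single cell lines departed from their own group there, in messenger RNA measured on 10 lines of mouse small cell lung cancer. A member was a named gene on 1 of these chromosomes whose probe, a 60-base DNA strand fixed on the array, was well above background on all 10 arrays, with 1 probe per gene, the one with the highest mean signal. This gave 2600 members of the 12147 genes measured in the same way over the autosomes and X, of which 951 lie on chromosome 2, 767 on chromosome 5, 427 on chromosome 12 and 455 on chromosome 13. The array named 4520 genes on these chromosomes, so 57.5% were members. Of the rest, 223 were above background on all arrays of 1 group but not on all 10, 534 on some arrays in another pattern and 1163 on none.

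The lines were single-cell-derived clones from mouse small cell lung cancer labelled non-NE. Most tumours of this type make neuroendocrine proteins, those of hormone-secreting nerve-like cells, and NE is the usual short form of that state. All 10 lines carry the genotype label RbL/L, Trp53L/L, were grown in RPMI1640 medium with serum and received no treatment. By their labels, 5 lines are Mes (Mes1 to Mes5) and 5 are Epi (Epi1 to Epi5). The labels do not spell these names out, and they give neither what recombined the alleles, nor the age of the mice, nor whether lines came from separate tumours. Each line was 1 array, so a value of a single line has no replicate, and p-values between the groups measure only the spread between these lines.

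Rb1 and Trp53 encode tumour suppressors that restrain the cell cycle and respond to DNA damage, and loss of both is the usual starting point of this cancer. Mouse chromosomes have their centromere at one end, so that a chromosome carries nearly all its genes on a single arm. The RNA of a gene can differ between lines for that gene alone or together with its neighbours, and medians over the many genes of a chromosome show the second kind of difference. DNA was not measured here.

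Between 60.4% and 64.4% of 41174 probes were well above background on an array, and no spot was saturated. The arrays lay on 3 slides, with Epi1, Epi3, Epi4 and Epi5 on slide 1, Mes3, Mes4 and Epi2 on slide 2, and Mes1, Mes2 and Mes5 on slide 3. All 6 markers of the non-neuroendocrine state (Hes1, Rest, Yap1, Vim, Cd44 and Myc) were above background on every array. Of 11 neuroendocrine markers, 4 were, among them Syp, Uchl1 and Ncam1, and 3 were above background on none (Neurod1, Insm1 and Chgb). No endothelial marker of 5 and 1 lung epithelial marker of 7 were above background on every array, with Pecam1 and Cdh5 on none. Of 7 fibroblast markers 5 were, and the mean log2 level over all 7 ran from 6.82 to 9.09 in Mes lines and from 9.69 to 12.79 in Epi lines. The mean of this list thus moved with the groups, and its part in the differences between them was not tested. Of its genes, Col1a1 and Col1a2 were higher in every Epi line than in any Mes line. The groups overlapped for Pdgfrb, Pdgfra, Acta2, Dcn and Lum. Each line was derived from a single cell, and bulk RNA averages over the cells of the line. Fewer cells making an RNA and less of it per cell cannot be told apart.

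Promoter sequences are shown for 4 members. Mmp24 is the last gene before a change along chromosome 2, and Notch1 lies far below its group in Mes1. Ccnb1 and Cks2, cell cycle genes on chromosome 13, were added for their promoters. Each sequence is the 250 bases before the annotated start, 5′ to 3′ on the strand of the gene, from RefSeq on build GRCm38.p6. All other positions here are on mm9, the build of the array files. Capitals mark the letters CCAAT, or ATTGG where the same letters lie on the other strand, a motif common in promoters of cell cycle genes. The genes shown were chosen with their values known.
Mmp24, chr2:155775092-155775341, plus strand: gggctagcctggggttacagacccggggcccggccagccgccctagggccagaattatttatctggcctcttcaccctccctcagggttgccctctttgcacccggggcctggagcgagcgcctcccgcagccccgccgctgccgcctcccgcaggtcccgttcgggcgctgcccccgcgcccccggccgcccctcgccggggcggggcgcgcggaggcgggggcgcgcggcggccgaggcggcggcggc
Notch1, chr2:26503823-26504072, minus strand: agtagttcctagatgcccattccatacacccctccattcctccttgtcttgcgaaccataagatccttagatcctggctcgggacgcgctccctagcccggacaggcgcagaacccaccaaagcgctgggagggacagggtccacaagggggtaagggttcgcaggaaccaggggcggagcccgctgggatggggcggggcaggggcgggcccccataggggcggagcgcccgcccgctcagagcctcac
Ccnb1, chr13:100786487-100786736, minus strand: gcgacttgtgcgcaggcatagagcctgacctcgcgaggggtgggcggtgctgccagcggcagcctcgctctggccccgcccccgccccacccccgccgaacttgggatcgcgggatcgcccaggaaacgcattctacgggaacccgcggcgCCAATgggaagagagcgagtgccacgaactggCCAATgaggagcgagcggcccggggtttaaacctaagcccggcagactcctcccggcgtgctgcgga
Cks2, chr13:51644982-51645231, plus strand: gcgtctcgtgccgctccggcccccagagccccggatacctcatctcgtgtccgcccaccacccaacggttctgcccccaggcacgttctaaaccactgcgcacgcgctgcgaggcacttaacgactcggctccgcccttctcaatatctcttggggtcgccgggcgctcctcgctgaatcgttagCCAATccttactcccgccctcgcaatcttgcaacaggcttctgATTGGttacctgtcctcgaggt
Counted back from the base before the start, the motif began at -99 and -67 in Ccnb1 and at -65 and -22 in Cks2, and these letters were in neither of the other windows. The bases G and C made up 79.2% of the Mmp24 window, 66.0% of that of Notch1, 69.6% of that of Ccnb1 and 62.4% of that of Cks2. Ccnb1 encodes cyclin B1, which drives entry into mitosis, and Cks2 a small subunit of cyclin-dependent kinases.

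The chromosomes were chosen by medians of log2 signal in single lines. Each gene was centred on its mean over the 10 arrays, and the median over the genes of a chromosome is called the shift of a line there. On chromosome 2, the shift was -0.30 in Mes1 against 0.22, 0.16, 0.22 and 0.18 in Mes2 to Mes5, and -0.39 in Epi1 against 0.01, -0.01, -0.06 and -0.04 in Epi2 to Epi5. Thus 1 line in each group lay far below the other 4. On chromosome 5, the Mes lines ran from -0.09 to 0.01, while Epi1 to Epi5 stood at 0.14, -0.21, -0.11, 0.29 and 0.07. Here the Epi group was spread on both sides of the Mes lines, Epi2 lowest and Epi4 highest.

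On chromosome 12, the shift was 0.27 in Mes1 against -0.06, -0.10, -0.06 and -0.10 in Mes2 to Mes5, and the Epi lines ran from -0.03 to 0.11. Mes1 was the single line apart, and above the others. On chromosome 13, Mes1 to Mes5 stood at -0.24, 0.15, 0.15, 0.19 and 0.16, and Epi1 to Epi5 at 0.01, 0.26, -0.13, -0.30 and -0.13. Mes1 and Epi4 lay at the low end of their groups and Epi2 at the high end, so that the groups overlapped on all 4 chromosomes.

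**Figure D1:**
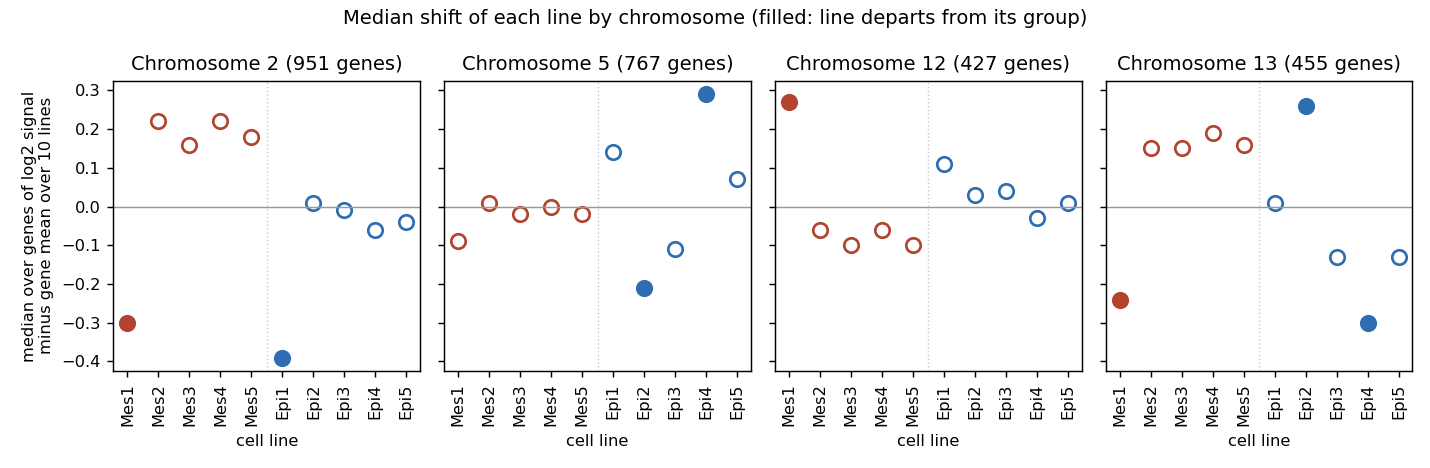
Median over genes of log2 signal minus the gene's mean over 10 lines (vertical axis) for each cell line (horizontal axis) on chromosomes 2, 5, 12 and 13, with filled points for lines that depart from their group. Mes1 stands at -0.30 on chromosome 2, 0.27 on chromosome 12 and -0.24 on chromosome 13, away from the other 4 Mes lines each time.

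The departure of a line was the median over genes of its log2 value minus the mean of the other 4 lines of its group, and a size of at least 0.2 was called departing. On chromosome 2 the departure was -0.51 in Mes1 (0.70 of the level of the others on a linear scale) and -0.36 in Epi1 (0.78). On chromosome 5 it was -0.32 in Epi2 (0.803) and 0.34 in Epi4 (1.27). On chromosome 12 it was 0.37 in Mes1 (1.29). These are 5 of the 8 departures found among 40 pairs of line and chromosome.

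The other 3 lay on chromosome 13, at -0.39 in Mes1 (0.764), 0.39 in Epi2 (1.31) and -0.29 in Epi4 (0.817). The values nearest to the limit on its outer side were -0.18 in Epi3 on chromosome 5, and 0.17 in Mes2 and 0.16 in Mes4 on chromosome 2. The nearest on its inner side were the -0.29 of Epi4 and the -0.32 of Epi2. Over the 9547 genes of the other chromosomes, the same median was between -0.02 and 0.03 in every line. Quantile normalization gave all arrays the same distribution of intensities, so medians this small over most genes largely follow from it. The departures above chose the chromosomes and are a description.

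Since a departure is measured against lines that may themselves depart, each was also taken without the others. On chromosome 5, Epi2 stood at -0.25 without Epi4, and Epi4 at 0.28 without Epi2. On chromosome 13, Epi2 stood at 0.33 without Epi4, and Epi4 at -0.20 without Epi2. All 4 kept their direction and stayed at or past the limit. Lines not called departing could pass it when 1 line was left out. Epi3 then reached -0.29 and Epi1 0.21 on chromosome 5, and Mes2 and Mes4 reached 0.22 on chromosome 2. Against lines of the same group on the same slide, Mes1 stood at -0.50, 0.38 and -0.40 on chromosomes 2, 12 and 13, Epi1 at -0.35 on chromosome 2, and Epi4 at 0.28 and -0.20 on chromosomes 5 and 13. For Epi1 and Epi4 these lines are the ones that remain without Epi2, so the values of Epi4 repeat those given above. No same-slide value exists for Epi2, the only Epi line on its slide.

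Over all 20 chromosomes, 22 of 200 pairs departed, on 15 chromosomes. Mes1 departed on 8 chromosomes (2, 6, 10, 12, 13, 14, 19 and X), Epi1 on 4 (1, 2, 10 and 18), Epi2 on 4 (4, 5, 13 and 14), and Epi4 on 2 (5 and 13). Mes5 departed on 2 and Epi3 and Epi5 on 1 each, all outside the 4 chromosomes described, and Mes2, Mes3 and Mes4 departed on none. Chromosome 9 had another pattern, with no departing line, shifts of 0.28 to 0.40 in Mes lines and of -0.38 to -0.27 in Epi lines. There the groups stood apart with every line counted, while on chromosomes 2, 5, 12 and 13 single lines departed. Without those lines, the groups also stood apart on chromosome 2, with 0.16 to 0.22 in Mes and -0.06 to 0.01 in Epi lines. They did so on chromosome 13 (0.15 to 0.19 and -0.13 to 0.01) and narrowly on chromosome 12 (-0.10 to -0.06 and -0.03 to 0.11), but not on chromosome 5. The lines were left out because of these same values, which by itself narrows the groups, so nothing further is read from this.

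**Figure D2:**
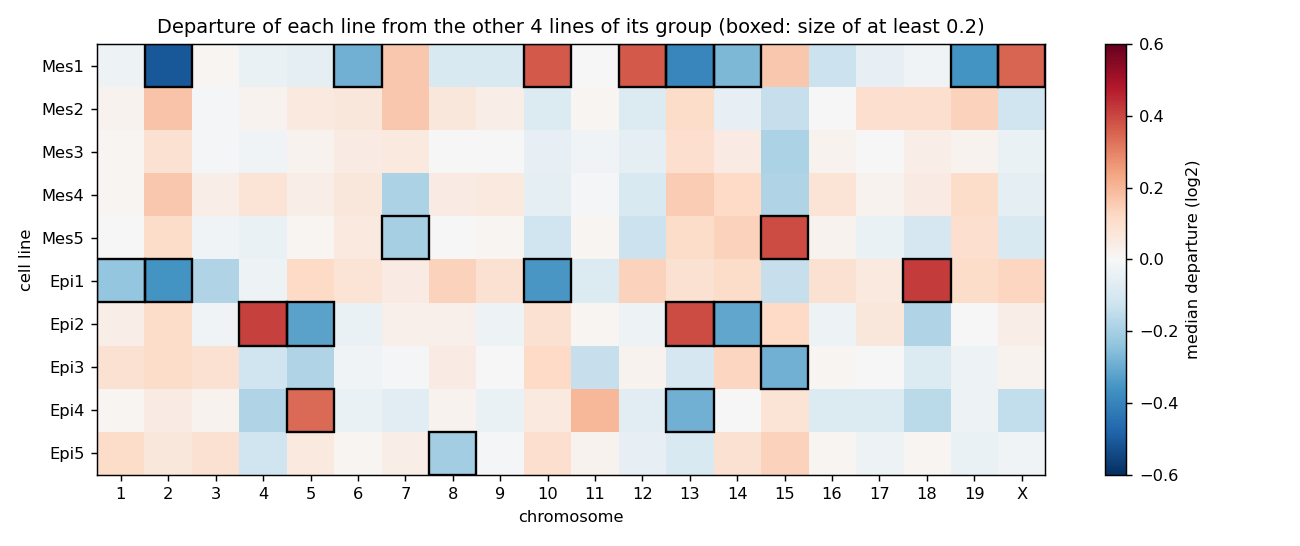
Median departure (log2, colour) of each cell line (rows) from the other 4 lines of its group on each chromosome (columns), with boxes where the size is at least 0.2. Of 22 boxes, 8 are in the row of Mes1, and chromosome 13 has the boxes of Mes1, Epi2 and Epi4.

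The shifts were spread over many genes. In Mes1, 642 of 951 genes of chromosome 2 (67.5%) had their lowest value of the 5 Mes lines, beside 27.1% of genes on the other chromosomes. In Epi1, 520 (54.7%) had their lowest value of the 5 Epi lines, beside 23.1%. On chromosome 12, 244 of 427 genes (57.1%) were highest in Mes1 among Mes lines, beside 24.9%. These shares describe the same departures that chose the chromosomes, and nothing further is read from them.

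On chromosome 5, 393 of 767 genes (51.2%) were lowest in Epi2 among Epi lines, beside 24.4%, and 377 (49.2%) were highest in Epi4, beside 15.5%. On chromosome 13, 273 of 455 genes (60%) were lowest in Mes1 among Mes lines, beside 27.1%. Among Epi lines, 264 (58.0%) were highest in Epi2, beside 28.7%, and 198 (43.5%) were lowest in Epi4, beside 17.3%.

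Genes past a size of 0.3 gave a like picture. On chromosome 2 they were 661 in Mes1 (69.5%, beside 26.3% elsewhere) and 531 in Epi1 (55.8%, beside 22.9%), and on chromosome 5 they were 397 in Epi2 (51.8%, beside 23.3%) and 435 in Epi4 (56.7%, beside 16.5%). On chromosome 12 they were 243 in Mes1 (56.9%, beside 25.9%). On chromosome 13 they were 272 in Mes1 (59.8%, beside 26.3%), 262 in Epi2 (57.6%, beside 26.9%) and 221 in Epi4 (48.6%, beside 17.5%). Between 4.2% and 11.4% of genes of these chromosomes went the other way by as much, beside 16.5% to 26.9% elsewhere.

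Epi2 and Epi4 were opposite on 2 chromosomes and in opposite order. On chromosome 5, 225 of 767 genes (29.3%, beside 5.58% elsewhere) were highest in Epi4 and lowest in Epi2 of the 5 Epi lines, and the median of Epi4 minus Epi2 was 0.54 (quartiles 0.20 and 0.86), against -0.04 on the other chromosomes. On chromosome 13, 130 of 455 genes (28.6%, beside 6.57%) were highest in Epi2 and lowest in Epi4, and the median of Epi2 minus Epi4 was 0.56 (quartiles 0.23 and 0.88), against 0.04 elsewhere. The reverse order was found for 7 genes on chromosome 5 (0.913%, beside 6.57% elsewhere) and 8 on chromosome 13 (1.76%, beside 5.58%).

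Mes1 and Epi1, from different groups, were both low on chromosome 2. There, 370 of 951 genes (38.9%, beside 5.03% elsewhere) had the lowest value of their own 5 lines in both, and 5 genes the highest in both (0.526%, beside 5.23%). The median difference of Mes1 minus Epi1 was 0.05 on chromosome 2 and 0.03 elsewhere.

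Along the chromosomes, departures were followed in windows of 10 Mb of probe position on mm9, counting those with at least 10 genes. Mes1 was low in 18 of 18 windows of chromosome 2, from -0.63 at 130 to 140 Mb (51 genes) to -0.32 at 80 to 90 Mb (36 genes). It was high in 10 of 10 such windows of chromosome 12, from 0.27 to 0.46, and stood at 0.30 (9 genes), 0.19 (7 genes) and -0.62 in the 3 windows with fewer, the last of them the end of the chromosome with 2 genes. Mes1 was low in 12 of 12 windows of chromosome 13, from -0.77 at 10 to 20 Mb (29 genes) to -0.21 at 30 to 40 Mb (41 genes). On chromosome 5, Epi2 was low in 15 of 15 windows (-0.44 to -0.22) and Epi4 high in 15 of 15, from 0.39 down to 0.10 at 80 to 90 Mb, a window of 10 genes. On chromosome 13, Epi2 was high in 12 of 12 windows (0.17 to 0.59) and Epi4 low in 12 of 12 (-0.38 to -0.23). Thus 7 of the 8 departures had 1 sign in all windows of at least 10 genes. In windows of 5 Mb, the exception among these 7 was Epi2 on chromosome 5, low in 22 of 23. Lines that do not depart could also keep 1 sign, as Epi3 did on chromosome 5, from -0.37 to -0.02 in windows of 10 Mb.

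**Figure D3:**
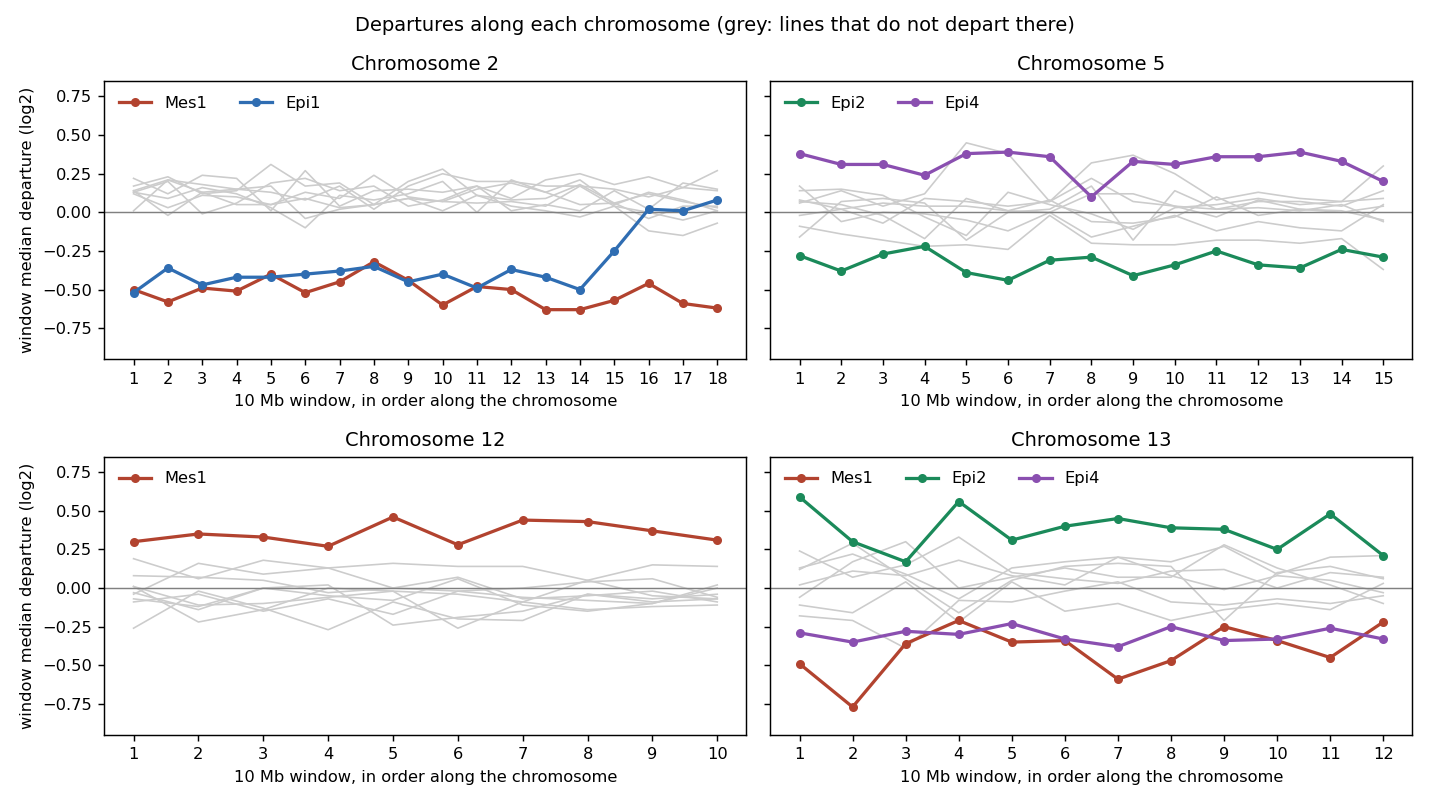
Window median departure (log2, vertical axis) in 10 Mb windows of at least 10 genes in order along each chromosome (horizontal axis), with coloured lines for the departing cell lines and grey for the rest. Epi1 runs low along chromosome 2 and returns to between 0.01 and 0.08 in the last 3 windows, while the other departing lines keep their sign in every window drawn.

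Epi1 on chromosome 2 was the exception. It was low in 15 of 18 windows, at -0.52 in the first and -0.25 at 150 to 160 Mb, and stood at 0.02, 0.01 and 0.08 in the last 3. The least-squares split of its genes in order fell between Mmp24 (probe chr2:155643521-155643580), a membrane-bound matrix metalloproteinase, and Eif6 (probe starting at 155645718), a factor that binds the large ribosomal subunit. The median departure was -0.42 over the 760 genes up to Mmp24 and 0.04 over the 191 from Eif6 on, and the split fell in the same place with minimum segments of 10, 20 or 40 genes. Positions on this array show only between which measured genes the values changed.

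Of the 190 genes just before Eif6, 153 were below 0 in Epi1 (median -0.42), and of the 191 from Eif6 on, 79 were (median 0.04). Mes1 had medians of -0.57 and -0.52 on the same sides, with 162 and 160 genes below 0. Genes lowest of their own group in both Mes1 and Epi1 accordingly made up 45.8% up to Mmp24 (348 of 760) and 11.5% from Eif6 on (22 of 191). Other splits separated only 10 to 60 genes at one end or in the middle, and their number or place varied with the minimum segment, so they are not described as changes along the chromosome.

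**Figure D4:**
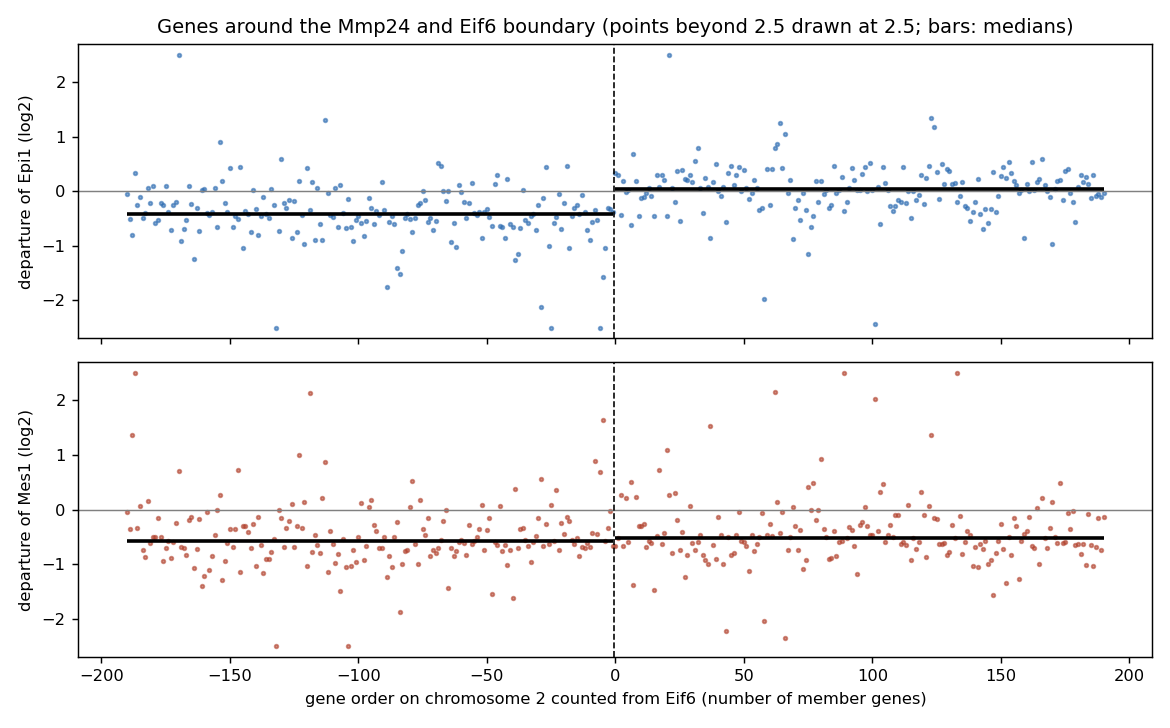
Departure (log2, vertical axis) of Epi1 (upper panel) and Mes1 (lower panel) for each gene of chromosome 2 by its order counted from Eif6 (horizontal axis), with bars for the medians on each side. The bar of Epi1 goes from -0.42 to 0.04 at the dashed line, and that of Mes1 from -0.57 to -0.52.

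The departures had the same sign over other probes of the same genes. Over probes of the members that were not taken, they were -0.63 and -0.31 for Mes1 and Epi1 on chromosome 2 (673 probes), -0.38 and 0.32 for Epi2 and Epi4 on chromosome 5 (551), and 0.31 for Mes1 on chromosome 12 (316). On chromosome 13 (317 probes) they were -0.52, 0.40 and -0.35 for Mes1, Epi2 and Epi4. These probes share the RNA and the arrays of the members. On chromosome 12 the departure of Mes1 was 0.13 over the dimmest and 0.45 over the brightest of 4 sets of nearly equal size by mean signal.

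The genes farthest from their group in Mes1 on chromosome 2 included a receptor and a ligand of the Notch pathway, which passes signals between touching cells. Notch1, the receptor whose promoter is shown above, had log2 signals of 5.48 in Mes1 and 8.16, 8.48, 9.06 and 9.14 in Mes2 to Mes5, and of 6.66, 6.39, 7.14, 7.63 and 8.16 in Epi1 to Epi5. Jag1, which encodes a Notch ligand, had 9.21, 12.34, 11.88, 11.40 and 11.61 in the Mes lines and 9.17, 8.06, 10.45, 9.11 and 9.60 in the Epi lines. Mes1 was the lowest of all 10 lines for Notch1 and within the Epi range for Jag1, with departures of -3.23 and -2.6. Between the groups, Notch1 differed by 0.87 ± 0.65 (SE, limma adjusted p = 0.345), and Jag1 was higher in Mes by 2.01 ± 0.59 (adjusted p = 0.0285), a call that ended when any single line other than Mes1, Epi3 and Epi5 was left out (highest adjusted p = 0.067), with no filter on dim probes (0.0564) and with slide as a block (0.156).

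Gfra4, a receptor of the GDNF family, stood at 3.0 in Mes1 and at 6.59, 6.21, 6.22 and 8.42 in the other Mes lines. Endog, which encodes mitochondrial endonuclease G, stood at 6.39 in Mes1 and between 8.92 and 10.04 in the other 9 lines. Both were lowest in Mes1 of all lines, by departures of -3.86 and -2.76. Against the direction of the chromosome, Fgf7, a fibroblast growth factor that acts on epithelial cells, stood at 13.06 in Mes1, 6.45 and 6.40 in Mes2 and Mes3, 10.99 and 10.96 in Mes4 and Mes5, and 11.17 to 12.67 in Epi lines.

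In Epi1, the low genes of chromosome 2 included Dnmt3b, a DNA methyltransferase that sets new methylation, with 3.49 in Epi1, 5.76, 5.85, 5.68 and 5.20 in Epi2 to Epi5, and 4.56 to 5.98 in Mes lines. Epi1 was the lowest of all 10 lines, by a departure of -2.13, and the gene lies before Eif6. Tgif2, a homeobox repressor of TGF-beta responses that lies past Eif6, went the other way, with 8.19 in Epi1 against 2.55, 6.04, 6.57 and 5.04.

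On chromosome 5, Msx1, a homeobox transcription factor, had 5.19 in Epi2 against 8.41, 8.51, 8.10 and 7.84 in the other Epi lines. Tec, a cytoplasmic tyrosine kinase, had 3.12 in Epi2 against 6.59, 6.59, 6.06 and 6.0. Epi2 was the lowest of all 10 lines for both, by departures of -3.03 and -3.19. A pair of secreted inflammatory signals was high in Epi2 instead. The chemokine gene Cxcl1 had 12.67 in Epi2 against 10.30, 7.63, 9.25 and 8.32, and the cytokine gene Il6 had 11.68 against 9.10, 8.24, 8.21 and 8.24. Both were also high in Mes1 (14.06 and 11.90) and below 9 in the other 4 Mes lines.

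In Epi4, the growth factor receptor gene Fgfr3 had 9.54 against 7.21, 6.30, 7.97 and 7.19 in Epi1, Epi2, Epi3 and Epi5, and Trim54, which encodes a microtubule-binding protein known from muscle, had 10.63 against 5.87, 6.51, 6.80 and 8.13. Epi4 was the highest of all lines for both, by departures of 2.37 and 3.80. Crmp1, known for its role in axon guidance, went the other way, with 3.39 in Epi4 against 9.42, 10.25, 9.39 and 8.76.

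On chromosome 12, the genes high in Mes1 included an inhibitor of NF-kappaB and matrix proteins. Nfkbia, which encodes that inhibitor and is itself induced by NF-kappaB, had 14.46 in Mes1 against 11.56, 12.01, 11.86 and 12.74 in Mes2 to Mes5 and 12.57 to 13.39 in Epi lines. Ltbp2, a binding protein of extracellular microfibrils, had 14.11 against 11.48, 11.66, 10.29 and 11.63. Smoc1, a secreted calcium-binding matrix protein, had 11.00 against 8.62, 6.31, 6.47 and 4.62. Mes1 was the highest of all 10 lines for these 3, by departures of 2.41, 2.85 and 4.5. Pgf, which encodes placental growth factor, went the other way, with 4.41 in Mes1 against 8.50, 7.28, 5.59 and 8.63.

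On chromosome 13, the genes low in Mes1 included Ogn, which encodes a small leucine-rich proteoglycan, with 8.22 against 10.98, 10.31, 11.38 and 11.40, and Sfrp4, a secreted Wnt antagonist, with 4.99 against 8.24, 8.20, 6.17 and 8.28. The transcription factor gene Irx1 had 9.16 in Mes1 against 11.37, 10.94, 11.69 and 10.16, and 11.79 to 12.23 in Epi lines. Mes1 was the lowest of all lines for the 3 genes, by departures of -2.80, -2.73 and -1.88.

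Tubb2b, a beta tubulin, was at opposite ends in the 2 departing Epi lines of chromosome 13, with 10.42 in Epi2, 3.12 in Epi4, 8.07, 6.01 and 5.59 in Epi1, Epi3 and Epi5, and 7.03 to 8.14 in Mes lines. Fgf10, a growth factor of lung branching, had 10.72 in Epi2 against 9.63, 6.60, 6.68 and 9.13, and Edn1, the precursor of the vasoconstrictor endothelin 1, had 8.19 in Epi4 against 10.83, 9.86, 11.42 and 9.17. Prl2c5 and Prl2c3, prolactin family members with near-identical sequences that may share signal, had 12.85 and 12.42 in Epi2. They were also above the other 3 Epi lines in Epi4 (10.70 and 10.40), against the direction of the chromosome there.

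The list of cell cycle and DNA replication genes was followed line by line, with 20 members on chromosome 2, 16 on chromosome 5, 4 on chromosome 12 and 15 on chromosome 13. In Mes1, 18 of 20 were below the mean of the other Mes lines on chromosome 2 (median -0.52), and 11 of 15 on chromosome 13 (median -0.40), beside medians of -0.51 and -0.39 over the other members. Of all members on chromosomes 2 and 13, 83.3% and 78.9% were below in Mes1, and elsewhere 51.9% of genes were. On chromosome 13, 15 of 15 were high in Epi2 (median 0.58, beside 0.38) and 15 of 15 low in Epi4 (median -0.39, beside -0.29). It stood lower still in Epi5, which does not depart there (median -0.46, beside -0.07), with 1 of 15 above the mean of the other Epi lines. Of all members on chromosome 13, 80.0% were above in Epi2 and 85.1% below in Epi4. Elsewhere 53.1% of genes were above in Epi2 and 52.3% below in Epi4. On chromosome 2, where Epi2 does not depart, this list also stood high in Epi2 (median 0.56, beside 0.10 over the other members), with 19 of 20 members above the mean of the other Epi lines. In Epi5, 0 of 20 were above it on chromosome 2 (median -0.31, beside 0.08). The list was thus high in Epi2 and low in Epi5 also on chromosomes where these lines do not depart.

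Ccnb1 had 11.08, 11.45, 11.78, 12.04 and 11.79 in Mes1 to Mes5 and 11.15, 11.78, 11.49, 10.73 and 10.83 in Epi1 to Epi5, and Cks2 had 13.68, 13.54, 14.04, 14.01 and 13.91, and 13.23, 14.08, 13.17, 12.93 and 12.89. For both, Epi2 was the highest Epi line, Epi4 was among the lowest 2, and the groups overlapped. Cenpk, which encodes a subunit of the inner kinetochore, had 10.12 in Mes1 and 10.66 to 11.02 in Mes2 to Mes5, and 10.47, 10.98, 9.90, 9.52 and 9.67 in Epi1 to Epi5.

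The other lists had fewer members on a chromosome. In Mes1 on chromosome 12, 13 of 14 transcription and chromatin regulators (median 0.35), 8 of 9 growth factor and receptor signalling genes (median 0.63) and 7 of 7 genes of stress, protein folding and metabolism (median 0.48) were above the mean of the other Mes lines, beside 78.5% of all members there and 48.1% of genes elsewhere. In Epi1 on chromosome 2, 11 of 11 genes of matrix, adhesion and cytoskeleton were below the mean of the other Epi lines (median -0.39), beside 76.0% of all members and 50.4% of genes elsewhere. Of the growth factor and receptor signalling list, 6 of 12 were below it in Epi1 (median -0.02). These shares were computed from the departures themselves and have no test.

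The comparison of the groups asked which genes differ between Mes and Epi lines. It did not choose the chromosomes, though it is not independent of that choice. It was tested with limma on log2 signal, with Benjamini-Hochberg adjustment over all tested probes at 0.05. Differences are Mes minus Epi in log2 units, each with its SE. Of all 12147 genes 27.2% differed, 15.2% higher and 12% lower in Mes. On the 4 chromosomes together, 500 of 2600 members differed (19.2%), with 292 higher and 208 lower, against 29.3% of the 9547 genes elsewhere. On single chromosomes elsewhere the share ran from 18.9% to 61.8%. The difference between these shares was not tested. The groups did not overlap for 255 members (9.8%), beside 18.1% of all genes. The chromosomes were chosen for lines that depart from their own group. Such lines widen the spread within a group and can make the groups overlap. The choice itself can thus lower the shares of members, and nothing further is read from these contrasts.

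On chromosome 2, 144 genes were higher and 53 lower in Mes, 20.7% in all, and the median difference was 0.19, beside 0.03 over all genes. On chromosome 5, 66 were higher and 92 lower (20.6%, median -0.07), and on chromosome 12, 30 and 44 (17.3%, median -0.05). On chromosome 13, 52 were higher and 19 lower (15.6%, median 0.12), a split that became 45 and 29 with 75th percentile scaling. Chromosome 9, where the groups stood apart with no departing line, had 61.8%. Chromosome 4, where Epi2 departs, had 47.7%, and chromosome 10, where Mes1 and Epi1 depart, had 40.8%.

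Single lines moved the counts by over 1.5 times. Without Mes3 they came to 127, 103, 44 and 37 on chromosomes 2, 5, 12 and 13, and without Epi3 to 131, 104, 39 and 33. On chromosomes 12 and 13 they came to 47 and 44 without Mes2, 47 and 46 without Mes4, 49 and 42 without Epi4, and 47 and 39 without Epi5.

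The departing lines entered these counts. Without Mes1 and Epi1, 271 genes of chromosome 2 differed (28.5%, beside 29.2% of all genes), 216 of them higher in Mes. Without Epi2 and Epi4, 117 differed on chromosome 5 (15.3%, beside 19.1%). Without Mes1, 105 differed on chromosome 12 (24.6%, beside 29.8%), 78 of them lower in Mes, and without Mes1, Epi2 and Epi4, 98 differed on chromosome 13 (21.5%, beside 23.6%), 81 of them higher. These fits use fewer lines and were chosen after seeing the data.

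Slide could not be separated well from group, since slide 2 alone held both, and with slide as a fixed block the difference is that of Mes3 and Mes4 minus Epi2 alone. With slide as a fixed block, 2 of the 2600 members were called (Tgif2 on chromosome 2 and Lcorl on chromosome 5, a gene named after its values were seen), beside 0.461% of all genes, and 333 (12.8%, beside 17.5% of all genes) had an unadjusted p under 0.05. Within slide 2 alone, none was called by limma, as of all genes, and 345 (13.3%, beside 15.5%) had an unadjusted p under 0.05. Each call on a group difference given here, other than that of Tgif2, was lost in the fixed block.

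Tgif2 rose most on chromosome 2, with 10.90, 10.75, 11.01, 10.45 and 10.30 in Mes1 to Mes5 and 8.19, 2.55, 6.04, 6.57 and 5.04 in Epi1 to Epi5, a difference of 5.00 ± 0.83 (SE, limma adjusted p = 0.00236). With slide as a block it was 8.18 and called (adjusted p = 0.0145), a value that rests on Epi2, the lowest Epi line for this gene, as the only Epi array. Bmyc, a relative of the Myc oncogene, had 9.82, 10.56, 9.94, 10.43 and 10.24 in Mes lines and 8.03, 8.54, 7.17, 7.60 and 6.84 in Epi lines (2.56 ± 0.31, adjusted p = 0.000581). Madd, a regulator of MAP kinase and Rab signalling, was 3.03 ± 0.59 higher (adjusted p = 0.00499). The Mes lines were above every Epi line for the 3 genes.

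Slc43a3, a purine base transporter, fell most on chromosome 2, with 7.32, 4.81, 4.06, 8.0 and 4.67 in Mes lines and 10.39, 11.72, 11.47, 10.26 and 10.26 in Epi lines (-5.05 ± 0.75, limma adjusted p = 0.00152). Sqor, the mitochondrial enzyme that oxidises sulfide, was 4.55 lower on the log2 scale in Mes (difference -4.55 ± 0.94, adjusted p = 0.00669). No Mes line reached the lowest Epi line for either gene.

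On chromosome 5, Nkx6-1, a homeobox factor of pancreatic beta cells and neural progenitors, had 10.79, 11.95, 11.37, 11.27 and 10.23 in Mes lines and 6.72, 8.65, 6.04, 9.76 and 8.36 in Epi lines (3.22 ± 0.65, limma adjusted p = 0.0058). Cxcl10, an interferon-induced chemokine, was 3.09 ± 0.86 higher in Mes (adjusted p = 0.0238), and the call ended without Epi3, Epi4 or Epi5 (highest adjusted p = 0.0596), with normexp background correction, and without Epi2 and Epi4 together (highest 0.0842).

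Tmem119, known as a marker of microglia and a factor in bone formation, had 6.77, 3.71, 3.93, 3.75 and 6.13 in Mes lines and 10.82, 8.27, 11.36, 12.15 and 12.06 in Epi lines (-6.07 ± 0.85, limma adjusted p = 0.00119). The calcium channel gene Trpv4 had 6.53, 5.25, 4.39, 5.56 and 9.75 against 12.74, 10.88, 11.61, 12.89 and 10.92 (-5.51 ± 0.90, adjusted p = 0.00221). Rasa4, a calcium-dependent inactivator of Ras, had 9.79, 6.76, 7.11, 8.02 and 6.80 against 11.02, 11.88, 11.39, 12.24 and 12.03 (-4.02 ± 0.54, adjusted p = 0.000974). The VEGF receptor gene Flt1 fell by 3.31 (SE 0.58, adjusted p = 0.00298). Each of the 4 was lower in all 5 Mes lines than in any Epi line.

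On chromosome 12, Tmed8 had 9.43, 9.29, 9.15, 8.96 and 9.31 in Mes lines and 8.57, 7.55, 7.80, 7.40 and 7.83 in Epi lines (1.39 ± 0.21, limma adjusted p = 0.00171). Gphn, which anchors inhibitory neurotransmitter receptors, had 10.63, 10.01, 9.94, 9.95 and 9.99 against 9.57, 9.33, 9.30, 9.0 and 9.11 (0.84 ± 0.17, adjusted p = 0.00659). Mes1 was the highest line for both. Without overlap in the other direction, Etv1, an ETS transcription factor, had 9.46, 4.86, 8.09, 5.72 and 8.42 against 10.68, 10.53, 10.22, 10.71 and 10.61 (-3.24 ± 0.76, adjusted p = 0.0119). The immediate early gene Fos fell by 2.02 (SE 0.50, adjusted p = 0.0151), the chaperone gene Hspa2 fell by 1.92 (SE 0.30, adjusted p = 0.00174) and the small GTPase gene Rhob fell by 1.63 (SE 0.30, adjusted p = 0.00382).

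On chromosome 13, Jmy, a cofactor of p53 that also nucleates actin, had 8.12, 8.60, 8.62, 8.27 and 8.24 in Mes lines and 7.22, 7.08, 7.19, 6.99 and 7.23 in Epi lines (1.23 ± 0.14, limma adjusted p = 0.000453). This gene varied little within either group, with an SD of 0.23 in Mes and 0.11 in Epi (n = 5 each). Hfe, a regulator of iron uptake, had 6.09, 7.49, 6.42, 6.19 and 7.32 against 5.67, 5.14, 4.93, 4.79 and 4.09 (1.78 ± 0.35, adjusted p = 0.0056), and the kinase gene Map3k1 was 1.36 ± 0.27 higher (adjusted p = 0.00581). Elovl7, which elongates long fatty acids, had 6.88, 7.55, 6.60, 9.31 and 8.76 against 11.34, 11.21, 12.37, 9.86 and 11.26 (-3.39 ± 0.58, adjusted p = 0.00289), and the adhesion scaffold gene Nedd9 fell by 1.15 (SE 0.22, adjusted p = 0.00474). Irx1, low in Mes1 as described above, was 1.32 lower on the log2 scale (difference -1.32 ± 0.41, adjusted p = 0.0368), a call that ended when any single line other than Mes1, Mes2 and Mes4 was left out (highest adjusted p = 0.0786), and without the departing lines, with a floor of 16 or with no filter on dim probes (highest 0.115).

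**Figure D5:**
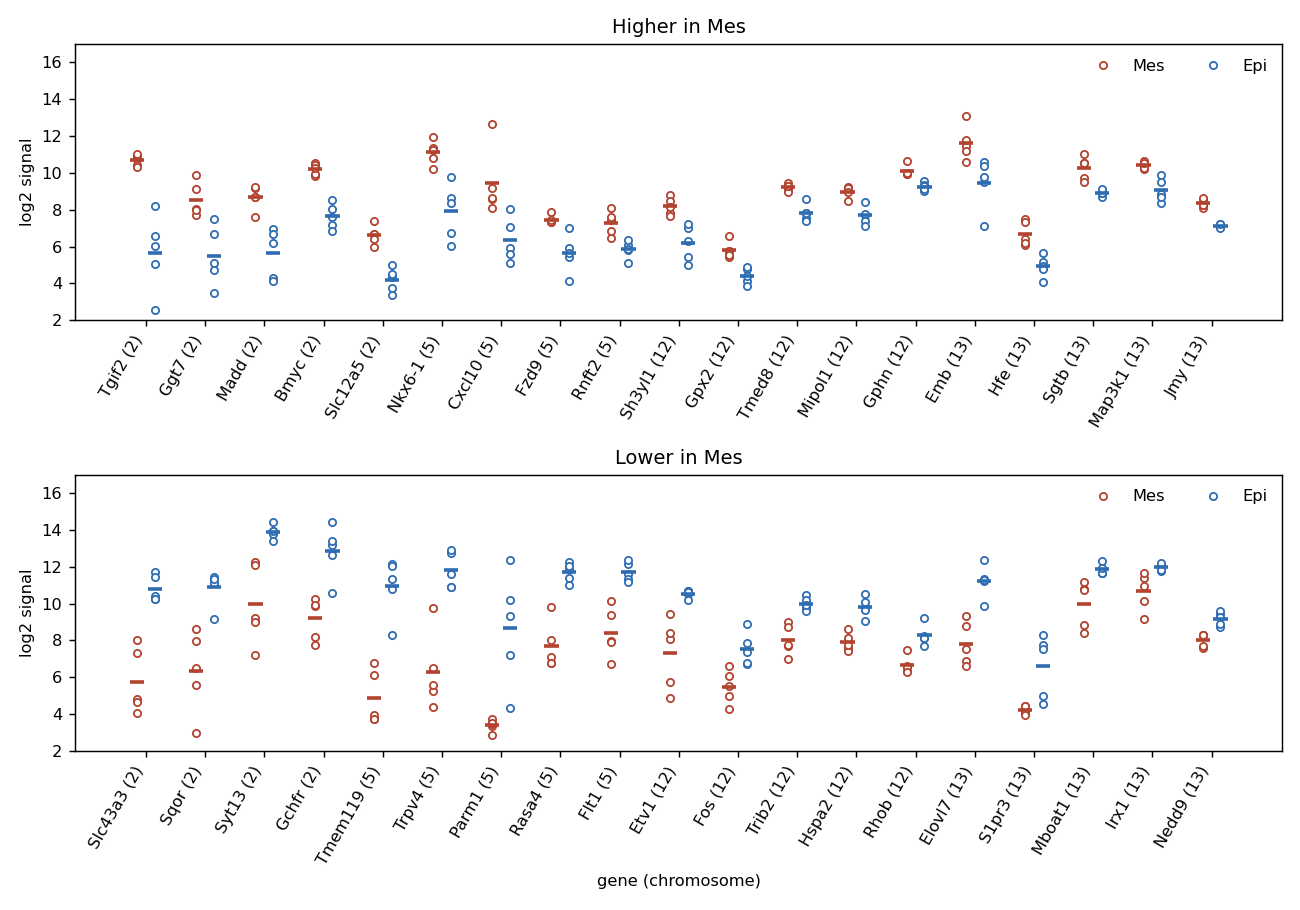
Log2 signal (vertical axis) of genes on chromosomes 2, 5, 12 and 13 (in brackets) with the largest group differences among those past the threshold without overlap, 5 circles per group for the lines and bars for the means. In the upper panel the Mes lines are above the Epi lines and in the lower panel they are lower, and some groups hold 1 line apart from the rest, as Epi1 is for Sqor at 9.17.

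Of 59 genes past the threshold that were named for their group difference, 42 stayed past it in every alternative other than slide as a fixed block and slide 2 alone, and 17 were lost in some other one. Genes named only by another rule, such as Cdk6 below, are not among the 59. Normexp background correction made 23 of the 59 differences smaller by over 1.5 times, to as little as 19.1% of their size, and made none larger by as much. Under it Tgif2 had a difference of 3.07, Madd 1.33, Slc43a3 -3.04, Tmem119 -3.5, Cxcl10 1.86, Jmy 0.77 and Hfe 0.49. It was also smaller for Fos at -0.82, Rhob at -0.93, Lfng at -0.95 and Serpinb9 at -0.6, the last 2 described next.

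By role, the 55 members of the cell cycle and DNA replication list had 10 higher and 3 lower in Mes and 42 that did not pass, so that 23.6% differed, beside 27.2% of all genes (median 0.28, beside 0.03). Cdc25b, a phosphatase that activates cyclin-dependent kinases, was 1.21 ± 0.26 higher (limma adjusted p = 0.00766), with Epi2 at 12.29 next to the lowest Mes line at 12.30. Mcm8, a helicase of DNA repair and replication, was 1.03 ± 0.19 higher (adjusted p = 0.0042). Ccni, an atypical cyclin, was 1.72 lower on the log2 scale (difference -1.72 ± 0.24, adjusted p = 0.00117), and Cdk6, a kinase of the G1 phase and the first member on chromosome 5, fell by 0.96 (SE 0.21, adjusted p = 0.00874).

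Of 42 measured growth factor and receptor signalling genes, 4 were higher and 6 lower (23.8%, beside 27.2% of all genes, median -0.18). Areg, which encodes the EGF receptor ligand amphiregulin, had 7.54, 7.60, 8.43, 6.62 and 8.64 in Mes lines and 13.35, 10.69, 10.33, 9.58 and 9.48 in Epi lines (-2.92 ± 0.70, limma adjusted p = 0.0124). Lfng, a glycosyltransferase that modifies Notch receptors, fell by 1.98 (SE 0.38, adjusted p = 0.00503). Of 45 transcription and chromatin regulators, 5 were higher and 4 lower (20%, median 0.01), among them Nfil3, a basic leucine zipper repressor, higher by 1.38 ± 0.35 (adjusted p = 0.0153).

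Of 25 genes of matrix, adhesion and cytoskeleton, 1 was higher and 3 were lower (16%, beside 27.2% of all genes, median -0.15). Of 27 genes of stress, protein folding and metabolism, 1 was higher and 2 were lower (11.1%, median -0.25), with Por, the electron donor of cytochrome P450 enzymes, down by a difference of -1.25 ± 0.24 (limma adjusted p = 0.00512). Of 10 genes of interferon response, antigen presentation and cytokines, 3 were higher and 2 lower (50%, median 0.08). Serpinb9, an inhibitor of granzyme B in a cluster of related genes on chromosome 13 that may share signal, fell by 1.24 (SE 0.32, adjusted p = 0.0168). The mean of the fibroblast markers given above moved with the same groups.

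Promoters were compared for the 2185 of 2600 members with an entry, over 300 bases from 250 before to 50 after the start. The median share of G and C was 62.0% in members and 60.7% in measured genes of other chromosomes, with medians of 23 and 21 CpG pairs, and TATAAA on either strand was in 6.5% and 7.6%. CCAAT on either strand was sought only in the 250 bases before the start. It was in 36.0%, 32.5%, 36.2% and 38.8% of members on chromosomes 2, 5, 12 and 13, beside 34.5% of all 27025 promoters. Those include genes not measured here, and their median share of G and C was 52.7%. Among cell cycle and DNA replication members CCAAT was in 20 of 47 (42.6%), and on chromosome 13 in 6 of 11, including Ccnb1 and Cks2. A match of letters is not a bound site, and no test was made.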

How the data were processed

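Messenger RNA was measured on 10 single-colour Agilent mouse arrays, 5 Mes and 5 Epi lines grouped by their titles. The deposited scanner files give background-subtracted, detrended intensity values with no scaling between arrays, from Agilent Feature Extraction 10.7 per the submitters' processing notes (10.7.3.1 per the file headers), beside raw median intensities of each spot and its surroundings. The authors deposited log2 values that were quantile-normalized in GeneSpring 11.0, per the series text. Both deposited tables were identical and correlated with the scanner values of their own array at 0.998 to 0.9999 on the log2 scale.

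Control spots and 46 to 87 outlier-flagged spots per array were dropped, and replicate spots were averaged into 41174 probes. Intensities were quantile-normalized, floored at 1 and put on the log2 scale. Of 34893 probes that the authors' table names, 33405 were matched by Entrez ID to RefSeq on GRCm38.p6 for current symbols. Chromosomes and positions are those of the deposited table (mm9). The different probes of a gene were not averaged, and genes in clusters or overlapping on opposite strands may share signal.

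Groups were compared by linear models with moderated variances (limma 3.58.1 under R 4.3.3) over probes that every array of either group showed above background, with Benjamini-Hochberg adjustment and a threshold of 0.05. Departures, windows and segments were computed in Python 3.11.15 with numpy 2.4.6 and pandas 2.3.3, and figures with matplotlib 3.10.9. The main group comparison, the departures and the segments were tested on simulated data. The chromosomes, members, gene lists and thresholds were chosen with earlier results of these data known. Named genes were, per departing line, the 5 with the largest departure in its direction outside the range of the other 9 lines and the 2 largest against it, per chromosome the 5 largest group differences in each direction without overlap, the genes beside a segment boundary, up to 4 genes per role list by departure and by group difference, and the first and last gene. Names that are only identifiers were left out. Of these genes, the text gives those that matter most, some are not reported here, and the counts of calls include them. Ccnb1 and Cks2 were added for their promoters.

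Alternatives changed the scaling (75th percentile), the background (normexp with offset 50, on median signals because mean signals are absent from the files), the source (the deposited log2 values), the floor (16), and the probe filter and summary. Other fits took slide as a block, fixed or random (with statmod 1.5.0), used slide 2 alone, blocked on the replicate number, weighted the arrays, or used a robust trend. Each line was left out in turn, thresholds, windows and segments were varied and, chosen after seeing the data, the departing lines were left out. Whether Mes and Epi lines of the same number belong together is not known from the labels. The deviations of same-numbered lines correlated at 0.002 to 0.034, and no line correlated best with its own number. A low correlation cannot show that such lines are unrelated, and the main comparison took no pairing. The small number of arrays limits the precision of every value.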

Additional observations from a re-analysis of the deposited data

Results flagged for a closer look

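Within 84 groups of 5 lines, made up of 8 chromosome and group pairs and 76 groups of 38 of the genes with the largest differences, 10 had 1 line farther from the rest than Dixon's 95% critical value. Chance gives about 1 in 20 groups that were not chosen by their values, but both the chromosomes and the genes were, so the number is a description. On the chromosome level there were 4, which the choice of chromosomes fixed. The shift of chromosome 2 was -0.30 in Mes1, against 0.16 to 0.22 in the other Mes lines, and -0.39 in Epi1, against -0.06 to 0.01 in the other Epi lines. Mes1 was also apart on chromosome 12, at 0.27 against -0.10 to -0.06, and on chromosome 13, at -0.24 against 0.15 to 0.19.

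Among the genes, Mes1 was apart for 3. It had a log2 signal of 12.68 for Cxcl10 (other Mes lines 8.07 to 9.16), 10.63 for Gphn (9.94 to 10.01) and 7.46 for Rhob (6.29 to 6.62). Epi1 was apart for Sqor at 9.17 (other Epi lines 11.14 to 11.42). Mes2 was apart for the Wnt receptor gene Fzd9 at 7.86 (7.32 to 7.42) and Mes3 for Gpx2, a glutathione peroxidase, at 6.60 (5.44 to 5.77). Gphn and Rhob lie on chromosome 12, where Mes1 is high, and Sqor lies in the stretch of chromosome 2 where Epi1 is low. Their causes were not tested.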

How the results depend on the processing

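The 8 departures kept their direction and stayed at or past 0.2 in the alternatives run on all members, on their other probes or on brighter members, but over the dimmest of 4 sets by signal Mes1 stood at 0.13 on chromosome 12. In those alternatives they ranged from -0.63 to -0.39 for Mes1 and -0.37 to -0.26 for Epi1 on chromosome 2, -0.40 to -0.24 for Epi2 and 0.26 to 0.39 for Epi4 on chromosome 5, 0.26 to 0.45 for Mes1 on chromosome 12, and -0.52 to -0.28 for Mes1, 0.26 to 0.43 for Epi2 and -0.35 to -0.20 for Epi4 on chromosome 13. A threshold of 0.15 gave 12 departing pairs in place of 8, and 0.3 gave 7. With a fold of 0.5 in place of 0.3, the share of genes past it in the direction became 34.3% for Epi1 on chromosome 2, 33.5% and 26.2% for Epi2 and Epi4 on chromosome 5, 36.1% for Mes1 on chromosome 12 and 24.0% for Epi4 on chromosome 13, since fewer genes pass a higher fold. With segments of at least 40 genes, the number of segments became 1 for Mes1 on chromosome 2, Epi2 on chromosome 5, and Epi2 and Epi4 on chromosome 13.

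The counts of genes differing between the groups moved most. In the order of chromosomes 2, 5, 12 and 13, they were 1, 1, 0 and 0 with slide as a fixed block (56 of all genes), where 122, 129, 41 and 41 had an unadjusted p under 0.05 in limma, and 0 on each in slide 2 alone, where 345 of the 2600 members had. Slide as a random block gave 219, 184, 87 and 91. The replicate number as a block, although it is not known to pair the lines, gave 170, 122, 53 and 40, with the count on chromosome 13 lowered by over 1.5 times. Array weights gave 322, 236, 135 and 147 (4640 of all genes). Leaving out 1 line gave 127 to 292, 103 to 180, 39 to 105 and 33 to 106. No departure was reversed in the alternatives run, nor was any of the 59 differences of genes named for them. Of the 59, 23 became smaller by over 1.5 times with normexp, 20 with slide as a block, which made 5 larger by as much, and 1 each with probe means and without the departing lines. Apart from the fewer lines of some fits, the cause of these changes was not tested. With 75th percentile scaling the median difference of all genes went from 0.03 to -0.02 and the share of higher genes among those called from 55.9% to 49.2%.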

Other observations

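Some further genes of these chromosomes stood apart by line. Hif1a on chromosome 12, which encodes a subunit of the hypoxia-inducible factor and was picked after its values were seen, had log2 signals of 11.45 in Mes1, 9.85, 9.62, 10.09 and 10.15 in Mes2 to Mes5, and 11.45, 10.71, 11.34, 10.79 and 11.29 in Epi1 to Epi5. Mes1 lay within the Epi range and the other 4 Mes lines below it. Between the groups Hif1a differed by -0.89 ± 0.32 (SE, limma adjusted p = 0.0638).

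On chromosome 13, Serpinb1a, which encodes an inhibitor of neutrophil proteases, went against the direction of the chromosome in Mes1. It had 13.49 there, 7.84, 7.64, 10.54 and 12.15 in Mes2 to Mes5, and 12.12, 13.91, 14.90, 12.28 and 15.02 in Epi1 to Epi5. Serpinb1c, a close relative in the same cluster whose probe may share signal, was also above the other Mes lines in Mes1, by a departure of 3.77. Mef2c, a transcription factor of muscle and nerve cells, had 9.79, 8.96, 8.72, 9.36 and 8.87 in Mes lines and 5.01, 6.36, 6.42, 9.21 and 7.17 in Epi lines, with Epi4 alone inside the Mes range, and was higher in Mes by 2.31 ± 0.63 (SE, limma adjusted p = 0.0217). That call ended without Epi3 (adjusted p = 0.0525).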
